A study of Rattus norvegicus with 4 samples.

Results

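Of 10 genes of the Fos, Jun and immediate early group, 4 rose in peri-implant epithelium on at least 1 probe set and none fell. For all 14217 genes, each by its highest-reading probe set, 6.6% rose and 4.8% fell. Fos changed most, by 5.55-fold, followed by Egr1 at 2.04-fold, Fosl2 at 1.87-fold and Jun at 1.49-fold on their highest-reading probe sets. The other 6 genes, Fosb, Fosl1, Junb, Jund, Atf3 and Ier3, had no probe set that passed. The group was defined by name as every probe set of the array whose only annotated symbol was Fos, Fosb, Fosl1, Fosl2, Jun, Junb, Jund, Atf3, Egr1 or Ier3. This gave 16 of the 31042 probe sets tested, and 10 of 14217 genes. These calls come from limma with an intensity trend in its variance prior. With limma's default prior no probe set of the whole array passed, as detailed below.

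Immediate early genes are transcribed within minutes of a stimulus such as a growth factor, a cytokine or a mechanical or chemical stress, from proteins that are already in the cell. Fos proteins cannot pair with one another and bind DNA as dimers with a Jun protein, whereas Jun proteins can also pair among themselves. Such dimers are called AP-1, and in stratified epithelia they act on genes of proliferation, differentiation, matrix breakdown and inflammation. Egr1 is a zinc finger factor induced by the same signals, often through serum response factor, and Atf3 is a stress-induced relative that can pair with Jun proteins. Ier3 is an immediate early gene too, but encodes a regulator of cell survival and not a transcription factor.

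The samples were 4 pieces of epithelium cut out by laser microdissection and hybridised to Affymetrix rat arrays, 2 of peri-implant epithelium and 2 of junctional epithelium. Peri-implant epithelium faced a titanium alloy implant set at the place of an extracted upper left first molar, and junctional epithelium is the collar of gingiva sealed to a tooth. The animals were male Sprague Dawley rats operated on at 4 weeks of age, tissue was taken 4 weeks later from 20 rats, and all 4 arrays, junctional ones included, carry the same label of extraction and implantation. The sources used here do not say whether an array holds RNA of 1 rat or of a pool, or whether both tissues came from the same rats, so p-values measure the spread between these arrays, which may be technical.

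All values are log2 signals, and 2 arrays per group limit the precision of every one. As background level served 6.42, the highest signal of 27 control probe sets for bacterial genes whose signals showed no clear sign of an added RNA. On each array 54.6% to 56.8% of probe sets exceeded it. All 12 measured epithelial markers, among them Krt5, Krt14 and Cdh1, were above background in at least 1 group. The captured tissue also held transcripts of other cells. All 8 fibroblast markers and 10 of 11 macrophage and dendritic cell markers were above background in a group, while 7 of 10 T, NK and B cell markers were below it on all arrays. Control RNAs spiked into every sample averaged 14.03 on the first peri-implant array, above the 13.70 to 13.76 of the other 3. Signal at the 3′ end of Gapdh exceeded that at its 5′ end by 0.52 to 0.53 on the peri-implant arrays and by 0.58 to 0.68 on the junctional arrays. For beta-actin the excess was 1.26 to 1.37 and 1.30 to 1.47, and the groups overlapped. Fewer cells of a type and less RNA per cell cannot be told apart in such samples.

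The words rose and fell are used where limma, with an intensity trend and a robust prior, gave an adjusted p (Benjamini-Hochberg over 31042 probe sets) under 0.05. By this rule 4.74% of all probe sets rose and 4.16% fell, and among the 15185 probe sets above background on all 4 arrays 7.49% rose and 7.23% fell. Of the 16 member probe sets, 5 rose, 0 fell and 11 did not pass. Of these 16, 13 were above background on all arrays, and the 5 that rose were among them. The median difference, peri-implant minus junctional, was 0.53 on the log2 scale over the 16 member probe sets, against 0.02 over all probe sets. Over probe sets above background on all arrays it was 0.51 for the 13 members, against 0.01 for all. Both peri-implant arrays lay above both junctional arrays for 11 of the 16, where 27.8% of all probe sets did, and below them for 1, where 25.4% of all did. The genes were chosen with results of these data known, so the counts are a description.

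With limma's default prior, which assumes the same spread at every signal level, 0% of probe sets passed in either direction, and the adjusted p of the members ran from 0.125 for Fos to 0.87 for Atf3. At an unadjusted p under 0.05 the default fit held 5247 probe sets, 5 of them members. An exact permutation test of 2 arrays against 2 cannot give a two-sided p below 0.333.

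**Figure D1:**
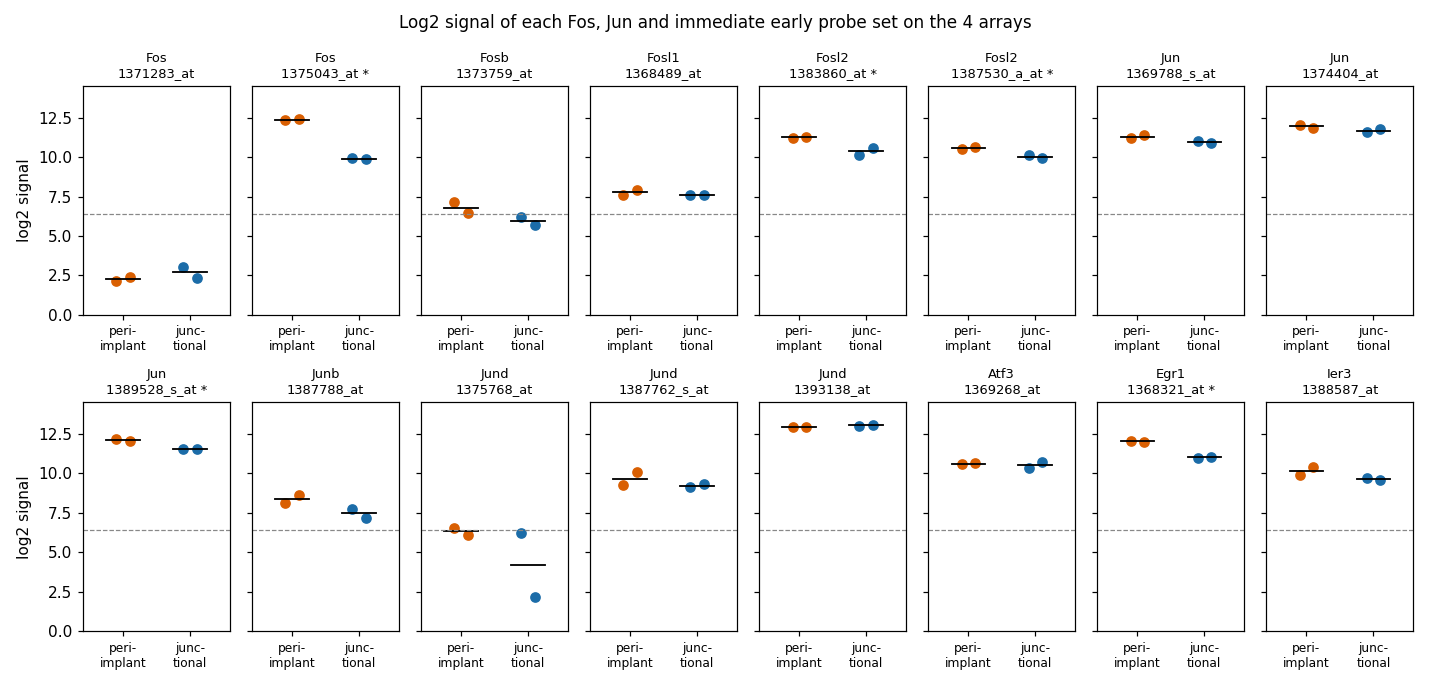
Log2 signal (vertical axis) of each of the 16 probe sets on the 2 peri-implant arrays (orange, left) and the 2 junctional arrays (blue, right), with array 1 left of array 2 in each group. Black bars are group means, the dashed line is the background level of 6.42, and an asterisk marks a probe set that rose. Fos probe set 1375043_at shows the widest gap between groups relative to its spread, and Fos probe set 1371283_at lies below the dashed line on every array.

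Fos, the founding member of the Fos family, had 2 probe sets that read very differently. Probe set 1375043_at had log2 signals of 12.35 and 12.40 on the peri-implant arrays, against 9.91 and 9.89 on the junctional arrays. The gap between the groups was many times the distance between arrays of a group. The means were 12.37 ± 0.03 and 9.90 ± 0.02 (SD, n = 2 each), a difference of 2.47 (SE 0.09), or 5.55-fold with a 95% interval of 4.79-fold to 6.43-fold. This rise passed with limma's intensity trend (adjusted p = 9.29e-07) and was the only member call that held with each array left out in turn (adjusted p from 0.00267 to 0.00892). By size it ranked 11 of the 758 genes that rose and were above background on all arrays. The second probe set, 1371283_at, had 2.16 and 2.39 in peri-implant samples and 3.05 and 2.36 in junctional samples. It was below background on all 4 arrays, so it gives no fold, and the rise of Fos rests on 1 probe set. The gene lies on chromosome 6 from 110852188 to 110855054 in the rat assembly GRCr8.

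Fosl2 encodes Fra-2, a Fos relative without the strong activation domain of Fos, and was the other Fos family gene that rose. Probe set 1383860_at had 11.23 and 11.29 in peri-implant samples, against 10.16 and 10.55 in junctional samples. The groups did not overlap, and the junctional arrays were the more spread. The difference was 0.90 (SE 0.14, adjusted p = 0.0042 with limma's intensity trend), or 1.87-fold with an interval of 1.51-fold to 2.30-fold. The second probe set, 1387530_a_at, had 10.54 and 10.62, against 10.12 and 9.94, and rose by 0.55 (adjusted p = 0.0253 with limma's intensity trend), or 1.46-fold. Both probe sets of Fosl2, a gene on chromosome 6 from 30017952 to 30039269 (GRCr8), thus rose. Neither passed with any 1 array left out, where the adjusted p ran from 0.0601 to 0.107 for 1383860_at and from 0.131 to 0.198 for 1387530_a_at.

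The remaining Fos family genes did not pass. Fosb, an early induced partner of Jun proteins, had 7.15 and 6.46 in peri-implant samples, against 6.19 and 5.70 in junctional samples. Both peri-implant arrays were higher, but only these 2 were above background, and the adjusted p was 0.306 with limma's intensity trend. With junctional signals raised to background, the fold is at least 1.30. Fosl1, which encodes Fra-1, a Fos relative known from migrating and invasive epithelial cells, had 7.62 and 7.92, against 7.59 and 7.61. Its peri-implant array 1 was close to the junctional arrays, and the difference of 0.17 had an interval from -0.43 to 0.78. A change of Fosl1 up to 1.71-fold upward or 0.741-fold downward lies within that interval.

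Jun, the main partner of Fos, had 3 probe sets, all reading higher in peri-implant epithelium, of which 1 rose. Probe set 1389528_s_at had 12.16 and 12.05 in peri-implant samples, against 11.54 and 11.53 in junctional samples. It rose by 0.57 (SE 0.09, adjusted p = 0.0042 with limma's intensity trend), or 1.49-fold with an interval of 1.30-fold to 1.70-fold. Probe set 1369788_s_at had 11.21 and 11.41, against 10.997 and 10.91, a difference of 0.35 (adjusted p = 0.0727 with limma's intensity trend). Probe set 1374404_at, annotated to the same source sequence as 1389528_s_at, had 12.06 and 11.84, against 11.61 and 11.77, a difference of 0.26 (adjusted p = 0.153 with limma's intensity trend). Groups did not overlap on any of the 3. Jun lies on chromosome 5 from 115009900 to 115012993 (GRCr8). The suffix _s_at marks probe sets that can bind transcripts of more than 1 gene. The call for 1389528_s_at was lost with any 1 array left out, where the adjusted p ran from 0.0585 to 0.127.

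Junb, a Jun family member that often opposes Jun in keratinocytes, had 8.14 and 8.61 in peri-implant samples, against 7.75 and 7.19 in junctional samples. The groups did not overlap and the difference was 0.91, or 1.88-fold, close to that of Fosl2. The arrays of each group were further apart, however (SD 0.33 in peri-implant and 0.40 in junctional samples), the interval ran from 1.19-fold to 2.95-fold, and the adjusted p was 0.0864 with limma's intensity trend. It passed when dim probe sets were removed before the adjustment (adjusted p = 0.0474).

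Jund, the Jun family member known for steady rather than induced transcription, had 3 probe sets that did not pass and did not point one way. The brightest, 1393138_at, had 12.96 and 12.95 in peri-implant samples, against 13.02 and 13.05 in junctional samples. Both peri-implant arrays were the lower ones, by 0.08 on average, and the interval of the ratio, from 0.848 to 1.06, leaves room for little change in either direction. Probe set 1387762_s_at had 9.28 and 10.06, against 9.14 and 9.31, and its groups overlapped. Probe set 1375768_at had 6.53 and 6.12, against 6.24 and 2.13, with 1 of 4 arrays above background. With dim signals set to the background level its ratio was 1.04, which is no lower bound, as peri-implant array 2 was raised too. Its fitted difference of 2.14 rested on the low junctional array 2 and was 0.09 without that array.

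**Figure D2:**
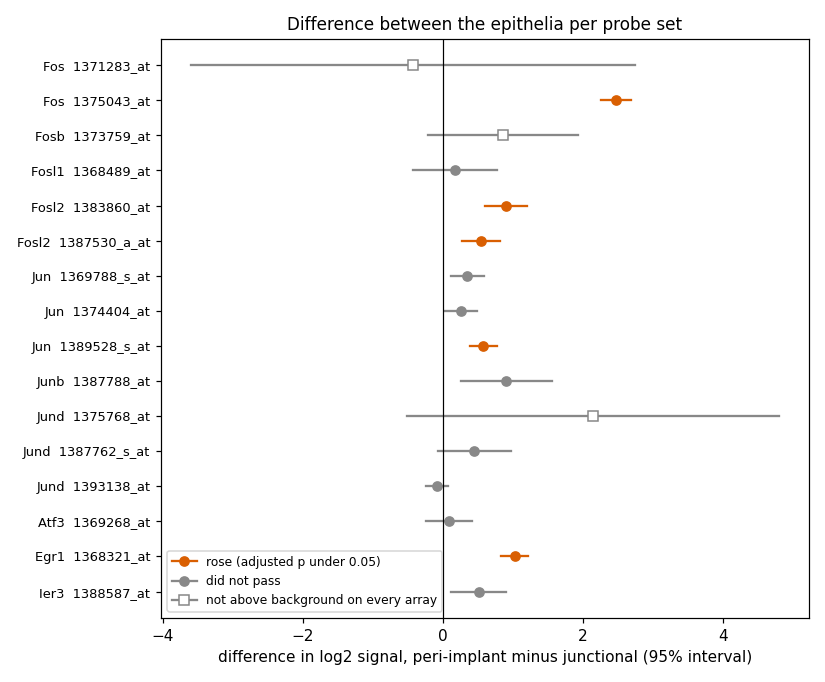
Difference in log2 signal, peri-implant minus junctional (horizontal axis), of each probe set, with limma's 95% interval under the intensity trend (n = 2 arrays per group). Orange marks the 5 probe sets that rose, grey those that did not pass, and open squares the 3 that were not above background on every array. The interval of Fos 1375043_at, from 2.26 to 2.69, lies above those of all other members that were above background on every array, and that of Jund 1393138_at spans 0.

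Egr1, a zinc finger factor that binds GC-rich promoter sites, was the second largest call. It had 12.06 and 12.01 on the peri-implant arrays, against 10.99 and 11.03 on the junctional arrays. Arrays of a group lay close together and the groups were far apart relative to that. The gene lies on chromosome 18 from 26737078 to 26740877 (GRCr8). The difference was 1.03 (SE 0.09), or 2.04-fold with an interval of 1.77-fold to 2.33-fold (adjusted p = 0.000174 with limma's intensity trend). Without peri-implant array 1 or 2 it still passed (the lower adjusted p being 0.022), and without junctional array 1 or 2 it did not (adjusted p = 0.056 and 0.0532). Among the 758 genes that rose and were above background on all arrays, Egr1 ranked 255 by size.

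Promoters are shown for Egr1, which rose, and Jund, whose brightest probe set did not pass, because they were the 2 members, of 6 searched, with a match to one of the sites below. The windows searched were those of Egr1, Fosb, Fosl1, Fosl2, Junb and Jund. Each ran from 250 bases before to 50 after a start site (RefSeq, assembly GRCr8). Those of Fos, Jun, Atf3 and Ier3 were not analysed here. The Fosb window, 88089135 to 88089434 on the minus strand of chromosome 1, lies inside the gene's span of 88082324 to 88089506. The bases before the outer end of Fosb were thus not searched. Both strands were searched for the CArG box, which serum response factor binds (an A and T core between CC and GG), for the cyclic AMP response element TGACGTCA, which Atf and Creb proteins bind, and for the AP-1 site TGACTCA. Capitals mark matches, and no match overlapped another.
Egr1, chr18:26736828-26737127, plus strand: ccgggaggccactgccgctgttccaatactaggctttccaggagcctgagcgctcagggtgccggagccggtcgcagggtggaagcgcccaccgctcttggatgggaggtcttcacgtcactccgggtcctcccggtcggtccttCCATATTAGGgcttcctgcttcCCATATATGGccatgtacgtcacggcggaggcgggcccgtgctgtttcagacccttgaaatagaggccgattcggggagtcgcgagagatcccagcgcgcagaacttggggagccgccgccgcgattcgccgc
Jund, chr16:18769722-18770021, minus strand: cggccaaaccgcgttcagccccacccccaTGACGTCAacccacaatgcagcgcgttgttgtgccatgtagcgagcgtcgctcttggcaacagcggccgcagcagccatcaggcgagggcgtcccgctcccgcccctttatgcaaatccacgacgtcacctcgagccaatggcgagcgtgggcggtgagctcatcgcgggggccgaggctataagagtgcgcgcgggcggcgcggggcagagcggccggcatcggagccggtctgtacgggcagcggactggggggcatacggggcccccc
The Egr1 window held 2 CArG boxes, beginning 105 and 83 bases before the start, and the Jund window 1 cyclic AMP response element, beginning 221 bases before it. Of 33469 promoters of this length, 1.64% held a CArG box, 1.83% a cyclic AMP response element and 4.63% an AP-1 site. None of the 6 member windows held the AP-1 site. A match is a run of letters in this window and not a measured binding site.

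Atf3 and Ier3 did not pass. Atf3 had 10.58 and 10.67 in peri-implant samples, against 10.32 and 10.75 in junctional samples. The peri-implant values lay between the junctional ones, and the difference of 0.09 had an interval from -0.24 to 0.42, so a change of at most 1.33-fold upward lies within it. Without junctional array 1 the sign of the Atf3 difference turned, to -0.12. Ier3 had 9.89 and 10.39, against 9.69 and 9.57. The groups did not overlap, the difference was 0.51, or 1.43-fold with an interval of 1.09-fold to 1.87-fold, and the adjusted p was 0.101 with limma's intensity trend.

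Other immediate early genes moved in both directions. Each gene is given by its brightest probe set, a rule by which 6.6% of 14217 genes rose and 4.8% fell. Of 38 listed genes 37 were measured, of which 10 rose, 4 fell and 23 did not pass. Their median difference was 0.16, or 0.13 once dim signals were set to the background level, against 0.05 for the 14217 genes. The genes that rose were Egr2, Ccn1, Tnfaip3, Maff, Nfkbia, Cebpb, Ier5, Homer1, Dusp1 and Cebpd, and those that fell were Gadd45a, Nr4a2, Klf6 and Rhob, all listed here after their values were seen. Without any 1 array at most 1 of the 37 rose and at most 1 fell.

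Egr2, a zinc finger relative of Egr1, had 7.76 and 7.25 in peri-implant samples, against 5.65 and 5.28 in junctional samples. Both junctional arrays were below background, so it was at least 2.12-fold higher (adjusted p = 0.0211 with limma's intensity trend). Ccn1, a matrix-associated secreted protein, had 10.30 and 10.04, against 8.94 and 8.13, and rose 3.10-fold (adjusted p = 0.00407 with limma's intensity trend). Tnfaip3, which encodes the NF-kappaB inhibitor A20, had 9.70 and 9.53, against 8.43 and 8.47, and rose 2.24-fold (adjusted p = 0.00351 with limma's intensity trend). In each of these 3 genes the groups did not overlap. Gadd45a, a growth arrest gene, went the other way, with 7.67 and 8.39, against 9.69 and 9.46, or 2.91-fold lower (adjusted p = 0.00569 with limma's intensity trend). Myc, the growth-promoting factor, differed by 0.02 and did not pass, and was named after its values were seen.

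**Figure D3:**
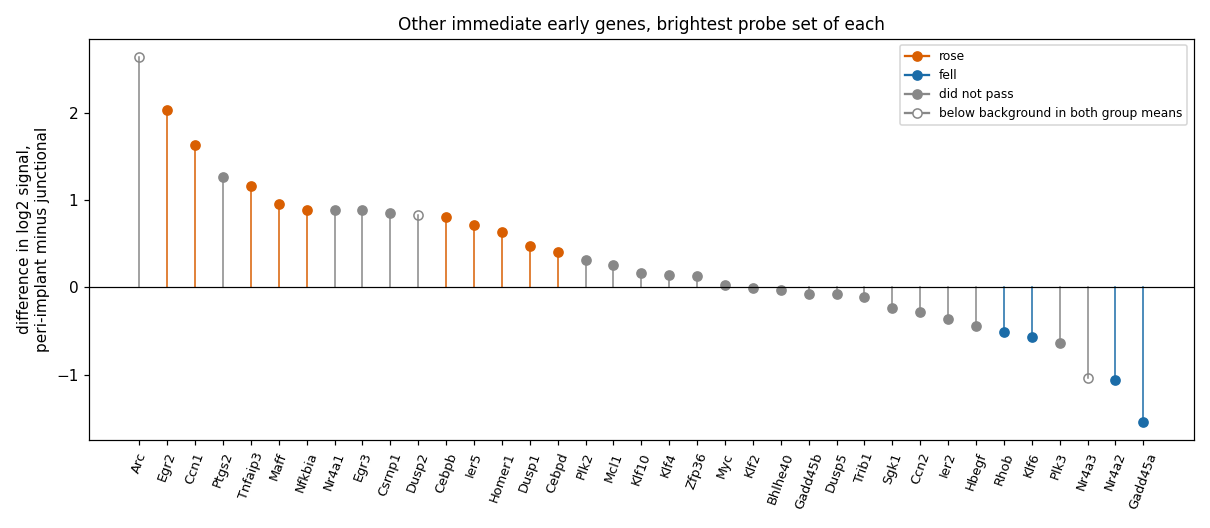
Difference in log2 signal, peri-implant minus junctional (vertical axis), of 37 other immediate early genes, each by its brightest probe set and ordered by size. Orange marks the 10 genes that rose, blue the 4 that fell and grey those that did not pass, with open circles for genes below background in both group means. Values run from 2.64 for Arc, below background on all arrays, to -1.54 for Gadd45a.

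A CArG box was found in the promoters of 4 of the 31 listed genes with a RefSeq window (12.9%, against 1.64% of all promoters). A cyclic AMP response element was found in 5 of the 31 (16.1%, against 1.83%) and an AP-1 site in 2 (6.45%, against 4.63%). The genes with a CArG box are shown because they did not share a direction. Egr2 rose, Klf6 fell by 0.57, and Zfp36 and Dusp5 differed by 0.13 and -0.08 and did not pass. Each line gives 30 bases around the box, which is in capitals.
Egr2, chr20:21054505-21054534, minus strand: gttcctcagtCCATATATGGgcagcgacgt
Klf6, chr17:69458660-69458689, minus strand: aataggaaggCCTTTAATGGagaggctcgg
Zfp36, chr1:92799121-92799150, minus strand: ccgggccgccCCATAAAAGGcgaaagctcc
Dusp5, chr1:262543682-262543711, plus strand: ggggaaacacCCATATTTGGccttatatgg
The box of Egr2 has the same 10 letters as the second box of Egr1 and begins at the same distance from the start, 83 bases. Dusp5 holds a second box directly after the one in capitals.

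Of 23 measured further bZIP factors, the class to which Fos, Jun and Atf3 belong, 0 rose and 2 fell, with a median difference of 0.04. Among all 14217 genes 6.6% rose and 4.8% fell, with a median of 0.05. Bach1, a repressor of oxidative stress genes, had 9.78 and 9.69 in peri-implant samples, against 10.21 and 10.57, and fell by 0.65 on the log2 scale (adjusted p = 0.0264 with limma's intensity trend). Atf6, a sensor of unfolded proteins, fell by 0.58, with 1 of its 2 probe sets in this direction. Batf and Batf3, AP-1 partners of immune cells, did not pass (adjusted p = 0.182 and 0.104 with limma's intensity trend). Both junctional arrays of Batf were below background, so its signal was at least 1.39-fold higher, and Batf3 was 0.99 higher on the log2 scale.

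Of 29 measured genes that AP-1 is known to act on in epithelia or in inflammation, 10 rose, 2 fell and 17 did not pass, with a median difference of 0.13. Among all 14217 genes 6.6% rose and 4.8% fell, with a median of 0.05. Whether AP-1 acted on the listed genes in these samples was not tested. Ccl2, a monocyte attractant, had 8.51 and 9.02, against 6.23 and 6.59, and was at least 4.796-fold higher, as 1 junctional array was below background. Krt17, a keratin of stressed and healing epithelium, had 14.89 and 14.77, against 12.95 and 13.05, and rose 3.55-fold. Il1b, an inflammatory cytokine, had 13.38 and 13.36, against 11.83 and 11.79, and rose 2.95-fold. Hmox1, the heme oxygenase induced by oxidative stress, rose 2.89-fold. The largest adjusted p of these 4 genes was 0.00643 with limma's intensity trend, and in each the groups did not overlap. None of the matrix-degrading targets on the list passed. Mmp9, Mmp12, Mmp13, Plau and Plaur, all above background on every array, differed by 0.09, -0.26, 0.46, -0.10 and 0.01. Mmp3 and Mmp10, each below background on some arrays, had fitted differences of 0.90 and -0.85. Tgfa and Odc1 were the 2 genes that fell, by 0.75 and 0.40 on the log2 scale. Ivl had 3.73 and 6.45 in peri-implant samples, against 7.60 and 7.64 in junctional samples, with 3 of 4 arrays above background. It was lower without overlap and did not pass (adjusted p = 0.0693 with limma's intensity trend). The matrix-degrading genes, Tgfa, Odc1 and Ivl were named after their values were seen.

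Markers of neutrophils and some of macrophages were higher in the samples where Fos, Egr1, Fosl2 and Jun were higher, and blood and tissue leukocytes transcribe these genes too. Of 6 measured neutrophil markers 5 rose, and their summed linear signal was 90385 to 103738 on the peri-implant arrays, against 38584 to 38933 on the junctional arrays. S100a8 and S100a9 made up 95.7% to 96.5% of that sum on each array, and the other 4 markers summed to 3651 to 3669, against 1623 to 1669. Camp was below background on all arrays. Of 11 macrophage and dendritic cell markers 3 rose and 1 fell, with summed signals of 19578 to 21492, against 13699 to 15123. On the log2 scale these sums were 14.39 and 14.26, against 13.88 and 13.74. Most of each came from Lyz2 alone, with 14.01 and 13.75, against 13.48 and 13.35. Csf1r, C1qc and Lyz2 rose, by 1.42, 0.94 and 0.47 on the log2 scale. Mrc1, below background on both peri-implant arrays, fell and was at least 2.22-fold lower. Cd163 was below background on all arrays. Fibroblast markers summed to 53464 to 53608, against 45681 to 45745, with 3 of 8 higher and 1 lower by the test. Endothelial markers summed to 1625 to 1796, against 1875 to 2226, with none of 7 passing. None of 10 T, NK and B cell markers passed, and Gzmb and Ms4a1 were at 0 on an array. The sums of these 10 markers, 540 to 616 against 212 to 304, consist on the junctional arrays of signals below background. With dim signals set to the background level their median difference was 0, as 7 of the 10 were dim on every array. The other 3, Cd4, Cd3g and Cd8a, exceeded background on both peri-implant arrays and on neither junctional array. Cd4 had 7.08 and 7.42, against 5.35 and 6.31. Cd3g had 6.98 and 7.10, against 5.55 and 6.02, and Cd8a had 6.43 and 6.96, against 5.41 and 5.94. Among all 14217 genes, each by its brightest probe set like the markers, 6.6% rose and 4.8% fell. The part of these cells in the differences of the Fos and Jun group was not tested.

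Immediate early genes and heat shock genes are both known to respond to tissue handling, and the heat shock genes are given here for their values only. Of 13 measured heat shock genes 0 rose, 3 fell and 10 did not pass, with a median difference of 0.09. Among all 14217 genes 6.6% rose and 4.8% fell. Hspa1a, which has a near-identical copy in Hspa1b, had 9.88 and 10.12, against 10.78 and 10.72, and fell by 0.75 on the log2 scale (adjusted p = 0.00714 with limma's intensity trend). Dnajb4 and Bag3, 2 co-chaperones, fell by 0.50 and 0.44. The time from death to freezing was not analysed here, and the part of handling in the differences of the Fos and Jun group was not tested.

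Over the 4 arrays, the genes whose pattern was most like that of Fos were Ifitm1, Tchh, Ly6c, S100a9 and Sprr2d. Likeness was the Euclidean distance between log2 signals centred on each gene's own mean, among 8774 genes above background on all arrays, and it was 0.13 for Ifitm1 and 0.21 to 0.26 for the others. Ifitm1, an interferon-induced membrane protein, had 11.98 and 11.88 in peri-implant samples, against 9.54 and 9.40 in junctional samples. With 2 groups of 2 arrays this measure finds genes with a similar difference and a small spread, and says nothing more.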

How the data were processed

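The authors deposited log2 signals for 31099 probe sets on 4 arrays. The sources used here name neither software nor normalization. The deposited values show an equal trimmed mean of the linear signal (500.19 on each array, 2% trimmed at each end) and a floor at log2 0. RNA was amplified and biotin-labelled with NuGEN kits, per the labels' protocols.

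Groups came from the titles. Control probe sets (57) were removed and the values were not normalized again. The 31042 probe sets were fitted in R 4.3.3 with limma 3.58.1 (lmFit, eBayes with trend and robust, two-sided, 2 residual degrees of freedom). The intensity trend was chosen because the median SD between replicates was 1.11 for means up to 3 and 0.061 above 11, with the outcome of the default prior known. Members and lists were chosen with earlier results of these data known. Named genes are all members, up to 4 genes per list (those called first, then by size, above background in a group) and the 5 genes most like Fos; other list genes were named for a promoter match or after their values were seen. List genes are represented by their brightest probe set. Symbols came from the platform annotation, updated by gene identifier, and positions and promoters from RefSeq, GRCr8. The fit was tested on simulated data drawn with a spread that depended on signal, as the intensity trend assumes. That test therefore cannot check the choice of prior for these arrays. Deviations of the arrays numbered 1 were hardly correlated between the groups (r = 0.04). This does not show whether the replicate numbers pair the arrays.

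Alternatives were the variance prior, normalization, background handling, probe set choice, a fold rule, a replicate block and leaving out each array.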

Additional observations from a re-analysis of the deposited data

How the results depend on the processing

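The call of Fos 1375043_at held in every alternative fit except limma's default prior. With that prior, 0 probe sets of the array, 0 members and 0 other immediate early genes in either direction passed, against 2762 probe sets, 5 members and 10 rising and 4 falling genes. With signals raised to background, which leaves many probe sets without any spread, 3751 probe sets passed and 8 members rose. With the replicate block, 4202 probe sets passed and 8 members rose, Junb, Ier3 and a second Jun probe set being added. Over 1 probe set per gene, with fewer features tested, 1810 passed. A rule of 2-fold without overlap and without a test took 6124 probe sets, 2 members that were higher, and 5 higher and 2 lower immediate early genes. With 1 array left out, 73 to 353 probe sets passed, 1 to 2 members rose, and 0 to 1 immediate early genes rose and 0 to 1 fell; these fits have 1 residual degree of freedom and assume that the lone array varies like the other group. In these fits the difference of Atf3 ran from -0.12, without junctional replicate 1, to 0.30, without junctional replicate 2. Under median centring, Fosl2 1387530_a_at did not pass (adjusted p = 0.0794, limma). No member fell under any alternative. The causes were not tested. Signal near background limits Fosb, Fos 1371283_at and Jund 1375768_at.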

Other observations

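Upstream of the Fos and Jun genes, kinases of the MAP kinase cascades and factors that bind the serum response element were examined as a list. Of 14 measured genes, 1 rose and 1 fell, near the 6.6% and 4.8% of all genes that did, with a median difference of -0.19 on the log2 scale. Map3k1, a kinase above the Jun kinases, had 11.76 and 11.63 in peri-implant samples, against 11.34 and 11.35 in junctional samples, and rose 1.28-fold (adjusted p = 0.0423 with limma's intensity trend). Srf, serum response factor itself, had 9.29 and 9.04, against 9.86 and 9.73, and fell by 0.63 (adjusted p = 0.0365), with 2 of its 3 probe sets in this direction. Mapk7 and Mapk8 were 0.93 and 0.54 lower and did not pass (adjusted p = 0.0894 and 0.0795 with limma's intensity trend).

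Of 14 measured genes that damp this response, 0 rose and 1 fell, which at this number of genes is close to the same shares of all genes. Zfp36l2, which promotes decay of AU-rich transcripts, had 11.68 and 11.69 in peri-implant samples, against 12.34 and 12.10 in junctional samples, and fell by 0.54 (adjusted p = 0.0103 with limma's intensity trend) on its brightest probe set, and all 3 of its probe sets were lower. Spry4, a brake on receptor tyrosine kinase signalling, was 0.90 lower and did not pass (adjusted p = 0.0635). Dusp10 and Dusp4, phosphatases of MAP kinases, were 0.60 higher and 0.51 lower and did not pass.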
